A study of Homo sapiens with 3 samples.

Results

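Aminoacyl-tRNA synthetases are the enzymes that attach each amino acid to its transfer RNA (tRNA), so that the ribosome reads the genetic code correctly. The genes described here were taken by symbol, within a family chosen with earlier results of these data known. The symbols were a single letter followed by ARS1 (cytosolic enzyme) or ARS2 (mitochondrial enzyme). EPRS1, FARSA, FARSB and the scaffold proteins AIMP1, AIMP2 and EEF1E1 were added to these. All 40 were found among the 19215 genes of the authors' deposited table, with 20 cytosolic synthetases, 17 mitochondrial synthetases and 3 scaffold proteins. RNA was sequenced from C28/I2, human chondrocytes made immortal with the large T antigen of a virus. The 3 samples were spheroid cultures kept in 0.5% DMSO, a solvent for drugs, for 48 h. They form 1 group, and separate cultures are not mentioned in the labels, which means that their spread may be technical only. Monolayer cultures of the line entered through the authors' deposited fold changes, and for those monolayers the sources used here give no treatment.

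Human cells run separate translation systems in the cytosol and in mitochondria. Most amino acids therefore have a pair of nuclear genes, one for each compartment. GARS1 and KARS1 each make both forms of their enzyme and are counted here with the cytosolic genes, and glutamine has no mitochondrial synthetase because mitochondria charge that tRNA with glutamate and then amidate it. Several cytosolic enzymes sit together with AIMP1, AIMP2 and EEF1E1 in the multisynthetase complex. Many cytosolic synthetase genes are known targets of ATF4, the transcription factor of the amino acid response, and WARS1 is known as an interferon-gamma-inducible gene.

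The FPKM values (fragments per kilobase of transcript, scaled to sequencing depth, hence a level per unit length) of the 3 libraries summed to 571705, 581522 and 623496. The number of reads behind them is unknown. Of 10 chondrocyte markers, SOX9 (6.71 ± 0.0866 FPKM, SD, n = 3) and COL11A2 (2.11 ± 0.506 FPKM, SD, n = 3) were at 1 FPKM or more, COL2A1 stood at 0.0167 FPKM on average and CNMD was listed at 0. Of these 10, ACAN (log2 fold change -2.16) and HAPLN1 (-1.63) fell and COL9A1 (4.79) rose per the authors' deposited table, with SOX9 at -0.62. ACAN, HAPLN1 and COL9A1 averaged only 0.73, 0.07 and 0.133 FPKM in the spheroids, low levels for values given to 2 decimals. Of 12 markers of other cell types 4 were at 1 FPKM or more: CD68 (702 FPKM), CD3D (32.6 FPKM) and CD3E (1.09 FPKM), which rose per the authors' deposited table, and KRT8 (19.4 FPKM), with a log2 fold change of -0.70. The endothelial gene PECAM1, at 0.657 FPKM, also rose, by 4.68 on the log2 scale per the authors' deposited table. The defining leukocyte gene PTPRC averaged 0.0233 FPKM, and summed immune markers ran from 698 to 773 FPKM, endothelial ones from 0.97 to 1.21 FPKM and epithelial ones from 18.6 to 20.8 FPKM over the libraries. The part of other cell types in the results was not tested. In bulk RNA, fewer cells of a type and less RNA per cell cannot be told apart.

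More synthetase genes were called lower than higher in the spheroids. Of the 40 members, 34 had a log2 fold change (spheroid over monolayer) below 0 per the authors' deposited table. With the call used here, a DESeq2 adjusted p under 0.05 with a log2 fold change at or beyond 1 in either direction, 15 members fell and 1 rose, WARS1. Across all 18467 tested genes the same call gave 9.34% lower and 11.5% higher. By the adjusted p alone, 32 members were lower and 4 higher, against 24.5% and 26% of all tested genes. The median log2 fold change of the members was -0.78 per the authors' deposited table, and that of all tested genes was 0.04. The remaining 4 members, IARS2, RARS2, FARS2 and WARS2, all mitochondrial, did not pass the adjusted p. All 40 members were detected in every spheroid library and all 40 were tested, 39 of them with a mean of at least 1 FPKM.

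**Figure D1:**
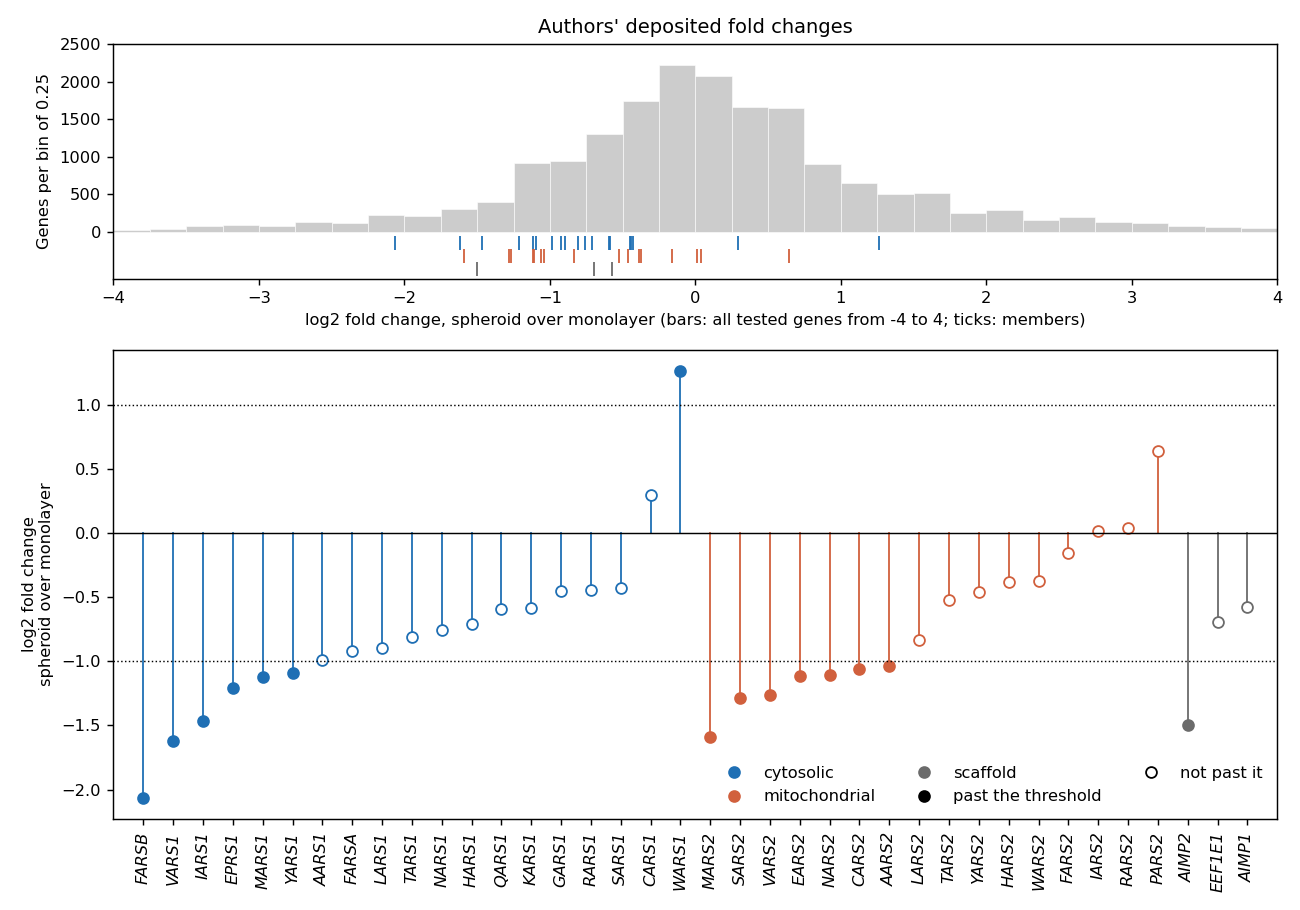
Authors' deposited log2 fold changes, spheroid over monolayer. The upper panel sets the members named here (ticks, by compartment) under the histogram of all tested genes from -4 to 4, and the lower panel gives each of them, filled where it passed the threshold (dotted lines at -1 and 1). WARS1 is the filled point above 0, at 1.26, and FARSB the lowest, at -2.06.

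Among the cytosolic synthetases, the level spanned from 11.4 to 94.9 FPKM with a median of 31.5. GARS1, which charges glycine in both compartments, was the most abundant, at 108, 91.3 and 85.6 FPKM in replicates 1, 2 and 3. WARS1, for tryptophan, followed at 81.6, 86.9 and 84.3 FPKM. These libraries overlapped between both genes, so their order is not resolved. WARS1 stood clear of the third gene, KARS1, for lysine, at 58.3, 55.8 and 54.5 FPKM. Below it came QARS1 (glutamine), SARS1 (serine), NARS1 (asparagine) and RARS1 (arginine), at means of 54.0, 53.1, 48.4 and 47.0 FPKM. Of the 39 neighbouring positions in the order of all members, 31 had overlapping libraries and 8 did not.

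**Figure D2:**
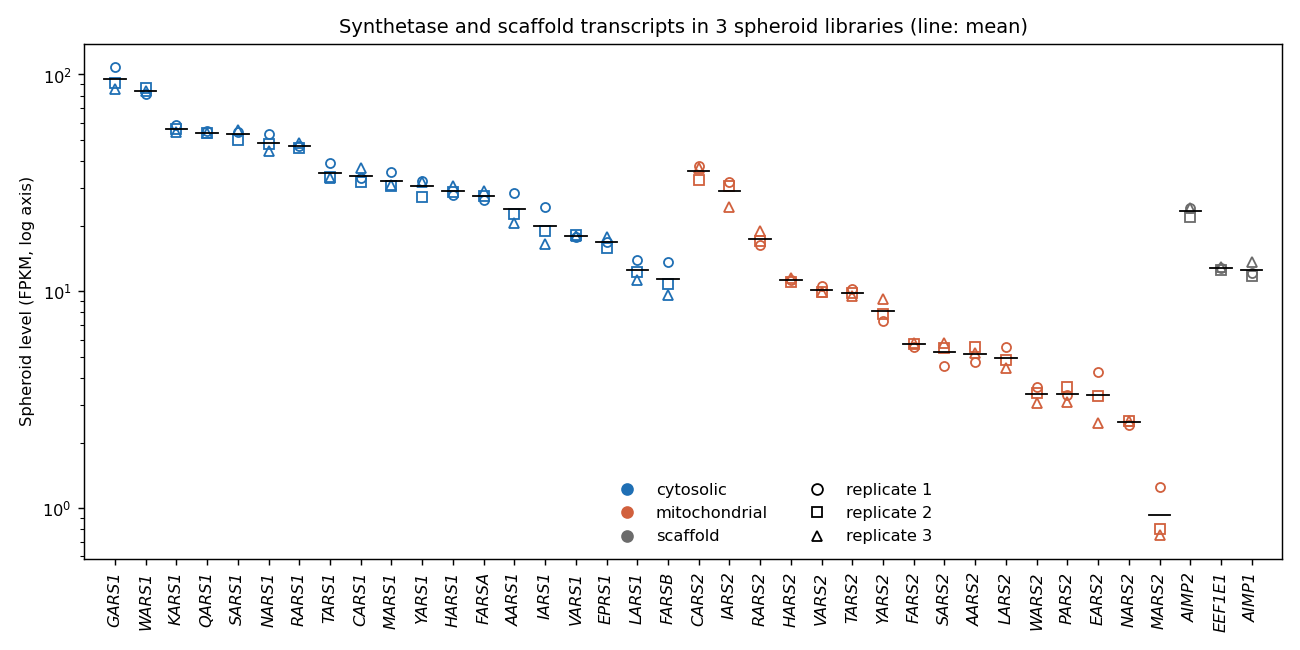
Level of the members named here in the 3 spheroid libraries (FPKM on a log axis; symbols are libraries, lines are means), ordered by level within each compartment. Cytosolic genes sit between 11.4 and 94.9 FPKM on average, whereas the mitochondrial genes shown other than CARS2, IARS2 and RARS2 lie under 12 FPKM and MARS2 is the lowest at 0.933.

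FARSB had the largest fall of all members. It encodes the beta subunit of the cytosolic phenylalanine enzyme, which is built from alpha subunits (FARSA) and beta subunits. FARSB stood at 13.6, 10.9 and 9.67 FPKM in the 3 spheroid libraries. Its log2 fold change was -2.06 per the authors' deposited table, 4.18 times below monolayer (DESeq2 adjusted p = 1.09e-62). FARSA stood at 26.3, 27.4 and 29.1 FPKM, above FARSB in every library, and its log2 fold change of -0.92 per the authors' deposited table did not reach the minimum of 1 (adjusted p = 5.61e-16, DESeq2). The level of FARSA was 1.93, 2.52 and 3.01 times that of FARSB in replicates 1, 2 and 3 (2.49 ± 0.539, SD, n = 3). The difference between the fold changes of the 2 subunits was not tested.

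VARS1, the valine enzyme, which associates with elongation factor 1, was the next cytosolic gene by size of change. It varied little between libraries, at 17.8, 18.2 and 17.9 FPKM. Its log2 fold change of -1.62 per the authors' deposited table had an adjusted p of 1.04e-59 (DESeq2). Of the eEF1 subunits that it meets, EEF1B2, EEF1D and EEF1G had log2 fold changes of -0.95, -0.63 and -0.44 per the authors' deposited table, each short of the minimum. YARS1, the tyrosine enzyme, whose fragments can be secreted as cytokines, stood at 32.1, 27.4 and 32.0 FPKM. It fell by 1.09 on the log2 scale per the authors' deposited table (DESeq2 adjusted p = 1.28e-28).

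In the multisynthetase complex, 4 of 11 members fell and none rose by the full call. All 40 members gave 15 and 1, and all tested genes 9.34% and 11.5%. By the adjusted p alone 10 of the 11 were lower and 1 higher. The 4 that fell were IARS1, for isoleucine, EPRS1, which charges both glutamate and proline, MARS1, for methionine, and AIMP2. The scaffold AIMP2 is the one on which the complex is assembled. IARS1 stood at 24.6, 19.0 and 16.5 FPKM, highest in replicate 1, with a log2 fold change of -1.47 per the authors' deposited table (DESeq2 adjusted p = 1.26e-30). EPRS1 stood at 16.9, 15.9 and 17.8 FPKM, with a log2 fold change of -1.21 per the authors' deposited table (DESeq2 adjusted p = 2.32e-36). MARS1 stood at 35.5, 30.7 and 31.1 FPKM, with a log2 fold change of -1.12 per the authors' deposited table (DESeq2 adjusted p = 1.83e-31). AIMP2 held 24.2, 22.0 and 24.2 FPKM and had the largest change of the complex, -1.50 per the authors' deposited table (adjusted p = 4.51e-39, DESeq2).

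The other scaffolds changed less. AIMP1, the precursor of a secreted cytokine, and EEF1E1, a scaffold also linked to the DNA damage response, had log2 fold changes of -0.57 and -0.70 per the authors' deposited table. LARS1, the leucine enzyme and a leucine sensor for mTORC1 signalling, was at -0.90, QARS1 at -0.60, KARS1 at -0.59 and RARS1 at -0.44 per the authors' deposited table, all past the DESeq2 adjusted p but short of the minimum fold change. Levels within the complex ranged from 12.5 FPKM for LARS1 to 56.2 FPKM for KARS1, so transcript levels of the subunits were unequal. Per the authors' deposited table, the median log2 fold change was -0.75 for the 8 enzymes of the complex. For the 12 cytosolic genes outside it, the median was -0.78 per the authors' deposited table. Of those 12, 3 fell and 1 rose, against 9.34% and 11.5% of all tested genes.

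Outside the complex, cytosolic genes that did not reach the minimum fold change included AARS1, for alanine, just inside the limit at -0.99, TARS1, for threonine, at -0.81, NARS1 at -0.76 and HARS1, for histidine, at -0.71 per the authors' deposited table. GARS1 and SARS1 stood at -0.45 and -0.43 and CARS1, for cysteine, at 0.29 per the authors' deposited table (DESeq2 adjusted p = 0.00677 for CARS1). The synthetases fall into a pair of structural classes with unrelated catalytic folds. Both classes had falls. Of 18 class I genes 8 were called lower and 1, WARS1, higher. Of 18 class II genes 5 were called lower and 0 higher, against 9.34% and 11.5% of all tested genes. The class medians were -0.87 and -0.73 per the authors' deposited table. EPRS1 holds a domain of each class and was left out of these counts, and the difference between classes was not tested.

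The mitochondrial synthetases were less abundant than the cytosolic ones. Of 17 genes 8 fell and none rose, with a median log2 fold change of -0.84 per the authors' deposited table. Among the 20 cytosolic genes 6 fell and 1 rose, with a median of -0.78 per the authors' deposited table. All tested genes gave 9.34% lower and 11.5% higher by the same call. Over synthetases of at least 5 FPKM the medians were -0.52 and -0.78, mitochondrial first, per the authors' deposited table. As means over all genes of each compartment the values were -0.69 and -0.71, mitochondrial first again, per the authors' deposited table. The order of the compartments thus turned in both. The difference between compartments was not tested. MARS2, the methionine enzyme, stood at 1.25, 0.80 and 0.75 FPKM, the lowest level of any member, and had a log2 fold change of -1.59 per the authors' deposited table (DESeq2 adjusted p = 2.97e-09). SARS2, for serine, stood at 4.53, 5.47 and 5.78 FPKM, and VARS2, for valine, at 10.6, 9.89 and 9.96 FPKM. Their log2 fold changes were -1.28 and -1.27 per the authors' deposited table, with DESeq2 adjusted p-values of 3.55e-14 and 4.74e-31.

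EARS2, whose product charges tRNA with glutamate, including the glutamine tRNA, stood at 4.26, 3.30 and 2.47 FPKM, and its log2 fold change was -1.12 per the authors' deposited table (DESeq2 adjusted p = 1.2e-12). EARS2 was highest in replicate 1 and lowest in replicate 3. The amidotransferase subunit genes QRSL1, GATB and GATC, which finish the glutamine tRNA, had log2 fold changes of -0.28, 0.17 and -0.25 per the authors' deposited table and did not pass.

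NARS2, for asparagine, stood at 2.43, 2.52 and 2.53 FPKM, and AARS2, for alanine, at 4.75, 5.53 and 5.18 FPKM. Their log2 fold changes were -1.11 and -1.04 per the authors' deposited table (DESeq2 adjusted p = 1.26e-07 and 1.57e-15). CARS2, the cysteine enzyme, which also makes cysteine persulfides, was the most abundant mitochondrial synthetase at 38.0, 32.8 and 37.3 FPKM. It fell by 1.06 on the log2 scale per the authors' deposited table (DESeq2 adjusted p = 2.85e-26). The 9 genes not called were LARS2 (leucine), TARS2 (threonine), YARS2 (tyrosine), HARS2 (histidine), WARS2 (tryptophan), FARS2 (phenylalanine), IARS2 (isoleucine), RARS2 (arginine) and PARS2 (proline). Their log2 fold changes ran from -0.84 for LARS2 to 0.64 for PARS2 per the authors' deposited table. PARS2 was the mitochondrial gene on the higher side by adjusted p alone (0.00894, DESeq2), at 3.33, 3.63 and 3.10 FPKM.

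Summed over genes, cytosolic synthetases reached 791, 738 and 744 FPKM and mitochondrial synthetases 170, 162 and 161 FPKM in replicates 1, 2 and 3. The cytosolic sum was thus 4.64, 4.55 and 4.62 times the mitochondrial one (4.60 ± 0.0471, SD, n = 3), the same order in every library. Without GARS1 and KARS1 the ratio was 3.69. Pairing genes for the same amino acid gave 18 pairs over the 17 amino acids that have a separate mitochondrial gene, since FARSA and FARSB both pair with FARS2, and EPRS1 with both EARS2 and PARS2. In 16 pairs the cytosolic gene was higher in all 3 libraries, and the median ratio was 3.70.

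The ratios were spread widely. MARS1 was 28.4, 38.4 and 41.5 times MARS2, and WARS1 was 22.6, 25.5 and 27.6 times WARS2, in replicates 1, 2 and 3. MARS2 lies near 1 FPKM, and with 1 FPKM added to every level the mean log2 ratio of MARS1 to MARS2 went from 5.15 to 4.12, below that of WARS1 to WARS2 at 4.29. NARS1 was 19.4 ± 2.18 times NARS2 and SARS1 was 10.2 ± 1.52 times SARS2 (SD, n = 3). At the other end, IARS1 was below IARS2, with ratios of 0.770, 0.622 and 0.670. CARS1 was 0.879, 0.977 and 0.994 times CARS2, so the cysteine genes were nearly level. VARS1 was 1.77 ± 0.0777 times VARS2 and LARS1 was 2.54 ± 0.00360 times LARS2 (SD, n = 3), the steadiest pair across libraries.

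**Figure D3:**
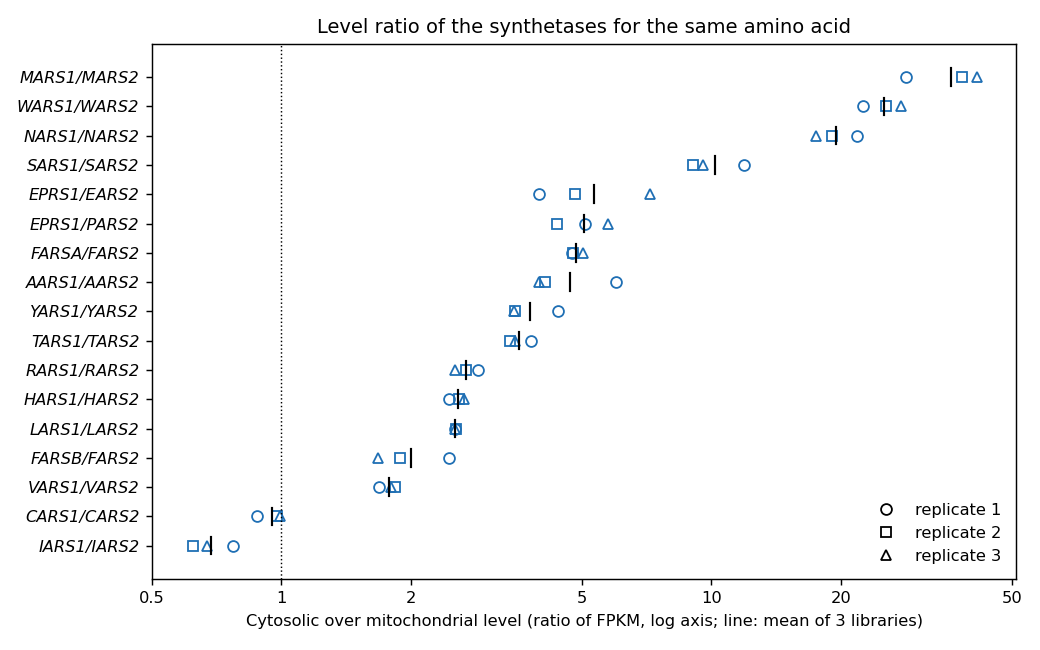
Ratio of the cytosolic to the mitochondrial level (FPKM) for the pairs whose genes are named here, in the 3 spheroid libraries, on a log axis; lines are means and the dotted line marks equal levels. IARS1/IARS2 and CARS1/CARS2 lie below 1 in every library, and MARS1/MARS2 reaches 41.5.

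Fold changes of the partners often differed in size or sign. Both partners fell in 3 pairs, for valine, methionine and glutamate. The cytosolic gene alone was called lower in 4 pairs, and the mitochondrial gene alone in 5. In 1 pair, for tryptophan, the cytosolic gene was called higher and its partner was not called. Neither partner was called in 5 pairs. These counts depend on the minimum of 1: AARS1 was at -0.99 and AARS2 at -1.04 per the authors' deposited table. By the adjusted p alone AARS1, NARS1, SARS1 and YARS2 were lower, like their partners. In other such pairs IARS2 and FARS2 did not pass the adjusted p, and CARS1 and PARS2 were on the higher side. For isoleucine, the log2 fold change was -1.47 for IARS1 and 0.01 for IARS2 per the authors' deposited table. For cysteine it was 0.29 for CARS1 and -1.06 for CARS2, per the authors' deposited table. For proline, EPRS1 was at -1.21 and PARS2 at 0.64 per the authors' deposited table. For tryptophan, WARS1 was at 1.26 and WARS2 at -0.37 (adjusted p = 0.095, DESeq2) per the authors' deposited table. Histidine has a pair of close paralogs, HARS1 and HARS2, which lie head to head with start sites 85 bases apart on chromosome 5 (RefSeq, GRCh38.p14). They stood at 27.8, 28.7 and 30.8 FPKM for HARS1 and at 11.3, 11.1 and 11.5 FPKM for HARS2, with log2 fold changes of -0.71 and -0.38 per the authors' deposited table. How reads shared by these paralogs were divided is not given, so their values are uncertain. None of the differences between partners was tested.

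**Figure D4:**
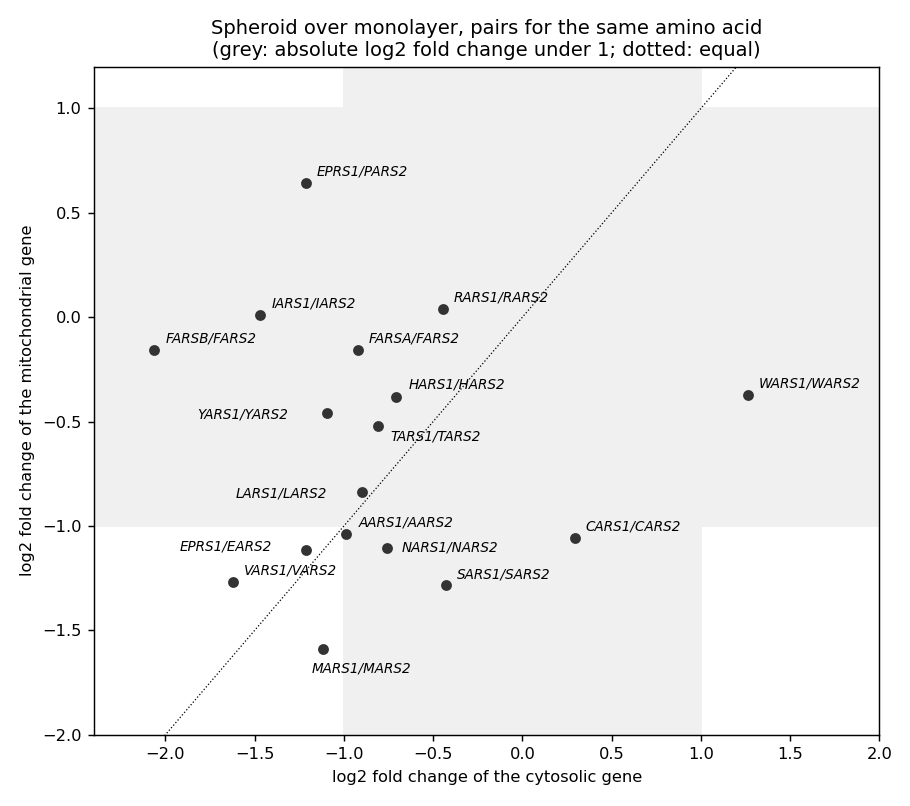
Authors' deposited log2 fold changes (spheroid over monolayer) of the cytosolic gene (x axis) and of its mitochondrial partner (y axis), 1 point per pair whose genes are named here. Grey bands mark absolute values under 1 and the dotted line equal values. WARS1/WARS2 lies alone at the right, at 1.26 and -0.37, and VARS1/VARS2, MARS1/MARS2 and EPRS1/EARS2 lie below -1 on both axes.

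WARS1 was the member that rose. Its transcript was 2.40 times the monolayer level, a log2 fold change of 1.26 per the authors' deposited table (DESeq2 adjusted p = 5.95e-47). In the spheroid libraries it made up 10.3%, 11.8% and 11.3% of the summed cytosolic synthetase level. Its level in the spheroids exceeded that of 94.3% of the genes above 0. A list of 16 interferon-inducible genes was set beside it. The list was chosen with earlier results of these data known, so its count is descriptive only. All 16 were called higher, CXCL9 at only 0.123 FPKM among them, against 11.5% of all tested genes. Their median log2 fold change was 2.16 per the authors' deposited table. The largest were the chemokine genes CXCL10 at 7.28 and CXCL11 at 7.17, the adhesion molecule gene ICAM1 at 5.02 and the guanylate-binding protein gene GBP4 at 4.52 per the authors' deposited table. IDO1, the enzyme that degrades tryptophan, the amino acid that WARS1 uses, stood at 13.1, 12.9 and 12.4 FPKM and had a log2 fold change of 4.01 per the authors' deposited table. EPRS1, whose product takes part in an interferon-gamma-activated silencing complex in monocytes, fell, as given above. The part of interferon signalling in the rise of WARS1 was not tested.

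RefSeq lists a pair of start sites for WARS1. The promoter of the inner one is shown because it holds a match to the core of the interferon-stimulated response element, GAAA and GAAA with any 2 bases between them. The 250 bases before that start site, at chr14:100375348-100375597 on the minus strand of GRCh38.p14, read as follows, with the match in capitals.
WARS1: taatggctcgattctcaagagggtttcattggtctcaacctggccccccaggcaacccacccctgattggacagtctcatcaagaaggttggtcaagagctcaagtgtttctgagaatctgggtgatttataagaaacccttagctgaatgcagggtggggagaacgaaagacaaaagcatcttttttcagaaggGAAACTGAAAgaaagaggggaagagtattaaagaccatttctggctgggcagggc

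This match began 55 bases before the start site. A match to the gamma-activated site, TTCNNNGAA, lay in the same window, 142 bases before it. The window of the outer WARS1 start site held neither. Promoter windows of 300 bases (250 before and 50 after the start) were listed for 33 of the 40 members. The interferon core was found on either strand in 3.57% of all 35116 listed windows, in 4.12% of 9975 genes at 1 FPKM or more, and in 2 of the 33 members. The other was EARS2, a gene that fell. The gamma-activated site was in 7.66% of windows, 8.61% of those genes and 5 members (CARS1, PARS2, TARS1, WARS1 and WARS2). A match to letters is not a binding site.

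ATF4 itself was abundant, at 137, 127 and 146 FPKM, and had a log2 fold change of -0.53 per the authors' deposited table (adjusted p = 3.63e-08, DESeq2), short of the minimum. Of the 30 genes listed as ATF4 and amino acid response genes, 8 fell, 5 rose and 17 were not called, with a median log2 fold change of -0.41 per the authors' deposited table. The genes that fell were led by enzymes of amino acid synthesis. PSAT1 and PHGDH, of serine synthesis, were at -2.50 and -1.88, CBS, of transsulfuration, at -2.05 and the cystine transporter gene SLC7A11 at -1.83 per the authors' deposited table. The genes that rose were led by the stress factor ATF3 at 3.58, the mTORC1 inhibitor DDIT4 at 3.24, the lipoprotein receptor gene VLDLR at 2.44 and the transcription factor gene CEBPB at 1.39 per the authors' deposited table. By the adjusted p alone 17 of the 30 were lower and 9 higher. All tested genes gave 9.34% lower and 11.5% higher with the full call, as above, and the part of ATF4 in the members' changes was not tested.

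The core of the C/EBP-ATF response element, TGATGNAA, was found in 8 of the 33 members with a listed promoter, against 3.62% of all windows and 2.86% of genes at 1 FPKM or more. Of the 16 cytosolic members with a promoter 7 held it, and of 14 mitochondrial members 1, YARS2. The matches are shown because the core was more frequent among members than among all windows, a difference that was not tested. Each is printed on the strand that reads TGATGNAA, with the core in capitals and 8 flanking bases on each side (RefSeq, GRCh38.p14).
AARS1, chr16:70289678-70289701, plus strand: aacttggcTGATGCAActgcgaga
CARS1, chr11:3057410-3057433, plus strand: ctagaatcTGATGCAAccgccgcc
GARS1, chr7:30594837-30594860, minus strand: tcggagcaTGATGAAAtcgccgcg
IARS1, chr9:92293695-92293718, plus strand: cacggaggTGATGCAAcgcgctga
MARS1, chr12:57488056-57488079, minus strand: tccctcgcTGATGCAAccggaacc
NARS1, chr18:57621807-57621830, minus strand: acgctctcTGATGCAAcgccggaa
TARS1, chr5:33440959-33440982, minus strand: ggaccagcTGATGCAAtcgaaagg
YARS2, chr12:32756079-32756102, minus strand: cacactgcTGATGGAAaaattaag

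The cores of AARS1, CARS1, IARS1, MARS1, NARS1 and TARS1 all read TGATGCAA, GARS1 reads TGATGAAA and YARS2 TGATGGAA. Of these 8 genes, 2 fell (IARS1 and MARS1) and none rose, with log2 fold changes from -1.47 to 0.29 and a median of -0.78 per the authors' deposited table. Among the 25 members with a listed promoter and no such core, 8 fell and 1 rose, with a median of -0.60 per the authors' deposited table. All tested genes gave 9.34% lower and 11.5% higher. The difference between members with and without the core was not tested. FARSB, which had the largest fall, had no match in its window. Other motifs searched on both strands were the ETS type (CCGGAAG, in 17 of 33 members, 10.3% of windows and 22.5% of genes at 1 FPKM or more), the E-box (CACGTG, in 5 members, 7.26% and 12.7%) and the NRF1 type (GCGC and GCGC with any 2 bases between them, in 7 members, 8.32% and 18.3%). An overlap between different motifs occurred once, in TARS1, between an ETS type match and a gamma-activated site match.

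Many amino acid response genes were highest in replicate 1, and several synthetases were highest there too. PSAT1 stood at 13.2, 2.92 and 3.04 FPKM in replicates 1, 2 and 3, and its mean was 6.37 with and 2.98 without replicate 1. ASNS, asparagine synthetase, stood at 15.6, 7.76 and 7.35 FPKM, and SLC7A11 at 2.69, 0.93 and 0.69 FPKM, a mean of 1.44 that became 0.81 without replicate 1. Of the 30 ATF4 list genes 21 were highest in replicate 1, against 38.0% of 12402 genes at a mean of 1 FPKM or more and above 0 in every library. Among the members it was 20 of 40, and among the 8 with the C/EBP-ATF core it was 6. Replicate 3 was highest for 7 of the list genes, ATF4 and DDIT4 among them. It was highest for 16 of the 40 members, against 41.2% of those 12402 genes. A common source of these patterns was not tested. AARS1 stood at 28.5, 22.7 and 20.6 FPKM, NARS1 at 53.0, 48.0 and 44.3 and TARS1 at 38.9, 33.5 and 33.4. By contrast CARS1, which also holds the core, was highest in replicate 3, at 33.4, 32.0 and 37.0 FPKM. The median coefficient of variation over libraries was 7.92% for the 39 members at 1 FPKM or more and 8.37% for all 12410 such genes. The authors' comparison was not refitted without replicate 1, since no monolayer library is among the listed samples.

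Lists of other genes of protein synthesis or mitochondrial DNA maintenance had median log2 fold changes from -0.75 to -0.09 per the authors' deposited table. The counts below stand against 9.34% of all tested genes called lower and 11.5% called higher, and several are near those shares. By the adjusted p alone, 24.5% of all tested genes were lower and 26% higher. On that count 17 of 24 tRNA maturation and transport genes were lower and 0 higher. Of the mitochondrial translation factor genes 8 of 15 were lower and 1 higher. Of the genes of the mitochondrial ribosome and mitochondrial DNA maintenance 14 of 16 were lower and 1 higher. Of the cytosolic elongation and release factor genes 7 of 13 were lower and 2 higher. Of the genes of eIF2, its kinases and related factors 5 of 16 were lower and 2 higher. Of 24 tRNA maturation and transport genes 4 fell and none rose (median -0.59 per the authors' deposited table), among them the ribonuclease P or MRP subunit genes RPP40 at -1.44, POP1 at -1.29 and POP5 at -1.02. Of 15 tested mitochondrial translation factor genes 2 fell, the deformylase gene PDF at -1.13 and TUFM, which brings charged tRNA to the mitochondrial ribosome, at -1.09 (median -0.48 per the authors' deposited table). Of the 16 genes of the mitochondrial ribosome and mitochondrial DNA maintenance 3 fell and 1 rose (median -0.75 per the authors' deposited table). TEFM, TFB1M and TFAM, factors of mitochondrial transcription and ribosomal RNA methylation, were at -1.27, -1.12 and -1.01, and PNPT1, an RNA-degrading enzyme, at 1.09 per the authors' deposited table.

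Among 13 cytosolic elongation and release factor genes, ABCE1, of ribosome recycling, fell by 1.53 on the log2 scale and EEF1A2 rose by 1.15, with a median of -0.38 per the authors' deposited table. EEF1A1, which carries charged tRNA to the cytosolic ribosome, averaged 1214 ± 24.9 FPKM (SD, n = 3) and was at -0.12 per the authors' deposited table (adjusted p = 0.194, DESeq2). A list of 16 genes held those of eIF2, its kinases and related factors. Of these, EIF2AK2, the interferon-inducible kinase PKR, rose by 1.23 and EIF2B3, a related factor, fell by 1.01 per the authors' deposited table. EIF2AK4, the GCN2 kinase that senses uncharged tRNA, was at 0.13 per the authors' deposited table (adjusted p = 0.375, DESeq2). None of 10 tRNA editing and synthetase-related genes was called (by the adjusted p alone 4 were lower and 2 higher), with a median of -0.23 per the authors' deposited table. Farthest in each direction were the peptidyl-tRNA hydrolase gene PTRH2 at -0.99 and TARS3, a further threonine enzyme, at 0.96 per the authors' deposited table. No list was tested against another.

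**Figure D5:**
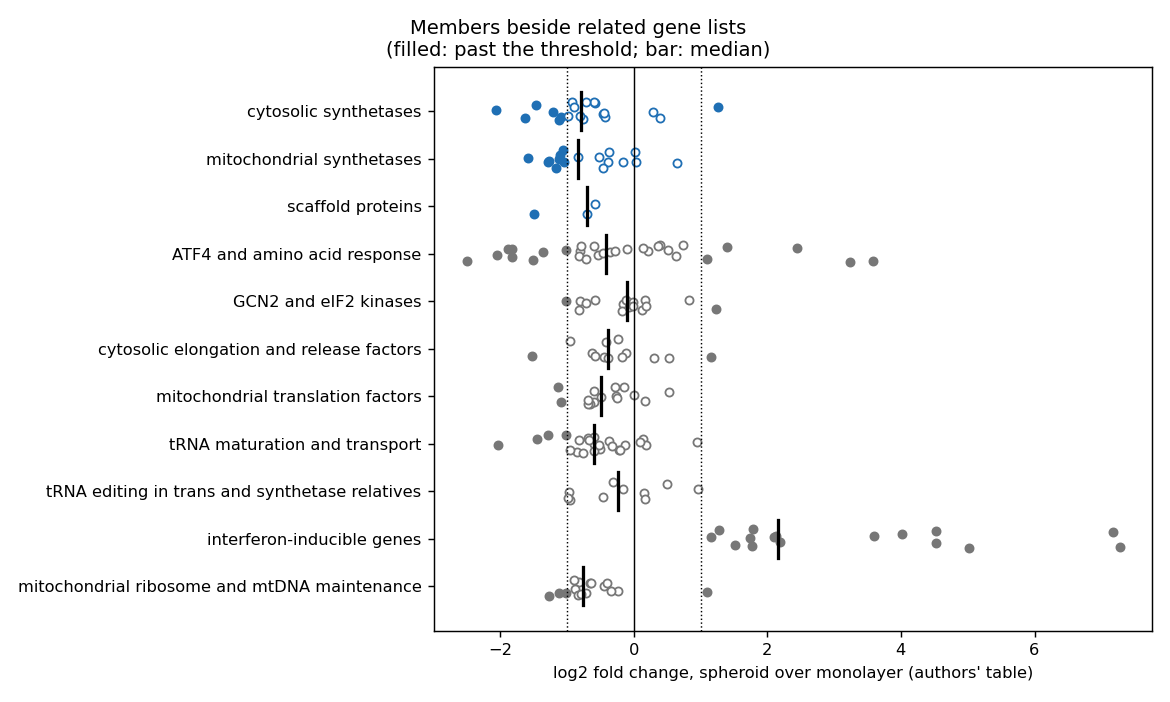
Authors' deposited log2 fold changes (spheroid over monolayer) of the members, in blue, and of 8 related gene lists, in grey, 1 point per gene, filled where the threshold was passed; bars are medians and dotted lines mark -1 and 1. Medians of the cytosolic and mitochondrial synthetases are -0.78 and -0.84, and that of the interferon-inducible genes is 2.16.

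Some member values may hold reads of other genes, since the strand of the libraries is not given. In RefSeq (GRCh38.p14), 8 members overlap a protein-coding gene, among them MARS1 with DDIT3 and ARHGAP9, AIMP2 with EIF2AK1, YARS1 with S100PBP, CARS2 with ING1 and EARS2 with GGA2. DDIT3, a stress transcription factor gene, was at 0.51 and EIF2AK1 at -0.16 per the authors' deposited table, neither called. Long noncoding RNA genes overlap 11 members, FARSB among them, and 18 members overlap a gene of either kind. VARS1, IARS1 and WARS1 overlap neither kind there.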

How the data were processed

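The authors deposited 1 table of genes with FPKM values to 2 decimals for single libraries and, per the file headers, log2 fold changes, p-values and adjusted p-values (q-values) of a DESeq2 comparison of monolayer and spheroid cultures. The submitters' processing notes name Bowtie2 2.2.5, RSEM 1.2.12, DESeq2 1.4.5 and GRCh38.p13, with no role given. The 3 further FPKM columns, named as monolayer libraries, match no listed sample and were not used, so the comparison was not recomputed. Depth is unknown, and no counting interval is given. Positive fold changes mean higher in spheroids: of 358 tested genes at 0 in the spheroids, 356 had one below 0. Deposited adjusted p-values equalled a Benjamini-Hochberg adjustment over all 18467 genes to within 1.3e-15. Levels are means ± SD over 3 libraries, on FPKM as deposited.

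The members, the 8 gene lists and the motifs were chosen with earlier results of these data known. Some genes are counted but not reported by name here. Named are the other members and, per list, up to 4 called genes with the largest change in each direction; other genes named were chosen after their values were seen. All 40 symbols matched the reference names. Promoters are RefSeq's (GRCh38.p14). Alternatives were other thresholds, centring, level filters, summaries, scaling, a pseudocount and leaving out each replicate. Calls are thresholds on the deposited values, and only the counting of calls was tested on simulated data. Values were computed with pandas 2.3.3, SciPy 1.17.1 and NumPy 2.4.6 in Python 3.11.15, and figures drawn with matplotlib 3.10.9.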

Additional observations from a re-analysis of the deposited data

How the results depend on the processing

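No paired analysis was possible because the 3 listed samples form 1 group. Without a minimum fold change 32 members were lower and 4 higher, and with a minimum of 2 on the log2 scale 1 was lower (FARSB) and 0 higher (4 higher and 32 lower at the DESeq2 adjusted p alone). An adjusted p under 0.01 left 15 lower and 1 higher, centring on the median of all genes gave 16 and 1, and a level of at least 1 FPKM gave 14 and 1. The mitochondrial median of -0.84 became -0.52 over genes of at least 5 FPKM and -0.69 as a mean, and the cytosolic median of -0.78 stayed between -0.82 and -0.71. The ratio of summed levels, 4.60, was 5.51 from medians, 3.69 without GARS1 and KARS1, 5.18 over genes of at least 5 FPKM, and 4.59 to 4.63 with a replicate left out. Member levels moved by less than 1 SD in all 40 cases with median-ratio scaling. Leaving out 1 of 3 replicates cannot move a mean by 1 SD, so it says nothing about stability here. With a pseudocount of 1 FPKM, 9 of 18 pair ratios moved by more than 1 SD, and none changed sign. Unknown depth and 2 decimals limit low values such as MARS2.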
